A study of Mus musculus with 6 samples.

Results

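The p53 gene set followed here holds 10 genes: Trp53, which encodes the tumour suppressor p53, its inhibitors Mdm2 and Mdm4, and 7 genes that p53 is known to act on, namely Xpc, Sesn1, Gtse1, Phlda3, Zmat3, Eda2r and Trp53inp1. Its members were all probe sets whose platform gene symbol equals 1 of these names, which gave 18 of the 45101 probe sets of the table. They belong to 9 of the 10 genes, because no probe set carries the symbol Trp53 in the platform annotation used here, and Trp53 itself is not analysed here. The study exposed Balb/c mice, labelled female and 6 to 8 weeks old, to the persistent fluorinated surfactant perfluorooctane sulfonate (PFOS) given by stomach tube for 3 weeks in a daily dose of 10 mg per kg of body weight, and took whole spleens. The PFOS group had 3 spleens, and the control group had 3 spleens of mice of the same strain and age that received no treatment, with no mention of a vehicle. Each spleen was hybridized to 1 Affymetrix Mouse430_2 array, and the values are RMA log2 values, on which a step of 1 is a doubling. By their labels the samples are biological replicates; whether they are separate animals is not stated, and p-values measure only the spread between these arrays, which may be technical. Nothing in the series measured DNA damage, p53 protein or cell numbers.

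In unstressed cells the ubiquitin ligase MDM2 binds p53 and sends it for degradation, and MDM4, which resembles MDM2, covers the part of p53 that activates transcription. When DNA damage kinases free p53 from both, it switches on genes of cell cycle arrest, repair, metabolism and cell death, and also Mdm2, which closes a feedback loop. Splenic lymphocytes are a classic tissue for this response, since they die readily through p53 after irradiation. The activity of p53 is set mostly at the level of its protein, so its target transcripts are the usual readout on arrays.

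Promoter sequence shows where the measured genes could meet p53 or the cell cycle. RefSeq promoter windows of build GRCm38.p6, each running from 250 bases before to 50 bases after an annotated start, were held for 7 of the 10 genes (10 windows). They were searched for the p53 response element consensus, which is a pair of 10-base units that reads nearly the same on both strands, with a spacer of 0 to 13 bases and the central C and G of each 10-base unit kept. Among all 32851 windows, 4.09% held a pair with at most 2 mismatches, 0.627% with at most 1 and 0.0731% with 0. Of the member windows, 2 held a pair with at most 2 mismatches, in Gtse1 and Sesn1, and they are shown beside Cdkn1a and Ccng1, a pair of textbook p53 targets. Capitals mark these units, and 30 bases before the element are given in lower case.
Gtse1, chr15:85859915-85859964, plus strand, 1 mismatch: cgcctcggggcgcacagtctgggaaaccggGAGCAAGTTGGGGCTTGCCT
Sesn1, chr10:41887223-41887275, plus strand, 2 mismatches: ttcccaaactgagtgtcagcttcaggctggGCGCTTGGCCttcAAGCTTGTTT
Cdkn1a, chr17:29090876-29090937, plus strand, 0 mismatches: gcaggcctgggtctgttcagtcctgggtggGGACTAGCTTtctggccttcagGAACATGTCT
Ccng1, chr11:40755462-40755511, minus strand, 1 mismatch: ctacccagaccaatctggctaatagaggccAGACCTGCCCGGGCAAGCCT
The Gtse1 element begins 1 base before the annotated start of the second of its 2 windows, and the Cdkn1a element begins 73 bases before a start. These matches are descriptions of letters and not sites shown to be bound. The best pair in the Mdm2 window had 4 mismatches, and 40.4% of all windows hold a pair that good. In mouse and human, the known p53 elements of Mdm2 lie in its first intron, which this window does not cover.

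The other Gtse1 window carried 3 copies of CCAAT, counted on either strand, the letters bound by the factor NF-Y in many promoters of dividing cells. Copies numbered 3 or more in 3.21% of all windows. The window of the mitotic cyclin Ccnb2 held 3, and that of the p53 target Ccng1 held 4, the most among the windows examined here by gene. Those of Gtse1 and Ccnb2 are printed from 110 bases before the start on, with CCAAT or its reverse complement in capitals. No CCAAT copy overlapped a printed p53 element.
Gtse1, chr15:85859597-85859716, plus strand: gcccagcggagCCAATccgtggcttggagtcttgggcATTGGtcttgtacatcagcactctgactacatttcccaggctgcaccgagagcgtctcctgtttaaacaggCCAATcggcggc
Ccnb2, chr9:70421545-70421664, minus strand: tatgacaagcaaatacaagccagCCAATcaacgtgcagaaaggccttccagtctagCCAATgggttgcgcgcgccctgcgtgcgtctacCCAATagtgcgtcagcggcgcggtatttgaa

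Whole spleen changed broadly in the same arrays, and this sets what a call among the p53 genes is worth. Over 45037 probe sets that are not array controls, pairs of arrays from the same group had correlations of 0.9987 to 0.9991, and pairs from different groups 0.9872 to 0.9877. At an adjusted p under 0.05 (limma, Benjamini-Hochberg over all of them), 49.5% of these probe sets were called, 30.2% higher and 19.3% lower in PFOS. Among markers of spleen cells, 10 of 11 for B cells, 9 of 10 for T cells and 8 of 10 for red pulp macrophages were called higher. Of 10 neutrophil genes, 2 were higher and 7 lower. All 12 measured markers of red cell precursors were lower, as were all 29 mitosis genes and all 13 liver genes, the last with mean levels of 5.01 to 5.07 in PFOS against 8.82 to 8.86 in control. The mice are labelled female, but on all 6 arrays Xist lay at 5.62 to 5.86, near the 40th percentile of all probe sets (5.62), while the Y-linked Eif2s3y lay at 9.62 to 9.91 and Kdm5d at 7.54 to 7.94. In bulk spleen, fewer cells of a type and less RNA per cell cannot be told apart.

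Most p53 genes moved little after PFOS. Of the 18 member probe sets, 10 were called higher and 2 lower in PFOS, and none changed as much as 2-fold. The called share was 66.7%, against 49.5% of all probe sets and 58.9% of the 27022 whose mean over the arrays lay at or above the 40th percentile, as 16 of the 18 did. Counted by gene, with the probe set of highest mean standing for each, 6 were higher (Xpc, Trp53inp1, Zmat3, Sesn1, Eda2r, Phlda3), 1 was lower (Gtse1) and Mdm2 and Mdm4 were not called. The called share of these 9 genes was 77.8%, with 66.7% higher and 11.1% lower. Over all 18193 genes it was 53%, with 32.9% higher and 20% lower. The median change of the 9 genes was 0.13 on the log2 scale, against 0.05 over all genes. The groups did not overlap for 13 of the 18 probe sets, 9 with PFOS above control and 4 below, where 58.3% of all probe sets did not overlap, 35.4% above and 22.9% below. The count of 10 higher rests on small margins: it was 5 without control replicate 3, 6 without PFOS replicate 3, and 5 at an adjusted p under 0.01. Calls fell over all probe sets too. Of the 45037, 13599 were higher with all arrays, 11718 without control replicate 3 and 11314 without PFOS replicate 3. At an adjusted p under 0.01, 19.5% of all probe sets were higher and 13.8% lower.

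**Figure D1:**
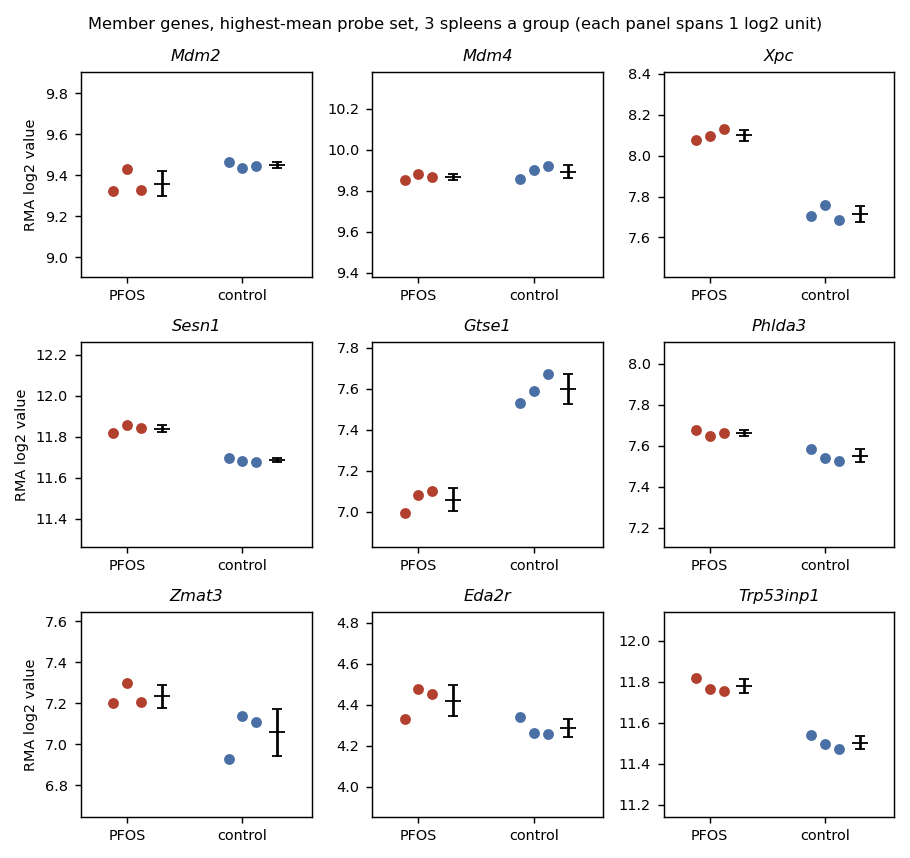
RMA log2 values of the 9 measured p53 genes, 1 panel a gene (the probe set with the highest mean), with PFOS left of control; points are the 3 spleens of a group and the black bar is the mean with its SD, and every vertical axis spans 1 log2 unit. Xpc and Trp53inp1 lie clearly higher in PFOS and Gtse1 clearly lower, while Mdm4 and Eda2r overlap between groups.

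Mdm2 gave no single direction, because its 3 probe sets disagreed. The probe set with the highest mean (1423605_a_at) read 9.32, 9.43 and 9.33 in PFOS spleens against 9.47, 9.44 and 9.45 in control spleens. The PFOS values were all below the control values, by a narrow margin, and the log2 change was -0.09 ± 0.04 (SE; limma adjusted p = 0.0953). A second one (1427718_a_at) read 7.13, 7.17 and 7.17 in PFOS against 7.49, 7.42 and 7.40 in control, a change of -0.28 ± 0.04 (limma adjusted p = 0.000573). The third (1457929_at) went the other way, with 5.68, 5.42 and 5.57 in PFOS and 5.28, 5.21 and 5.33 in control, a change of 0.29 ± 0.07 (limma adjusted p = 0.0095). Its groups do not overlap either, but its mean over the arrays lies under the 40th percentile of all probe sets. On these arrays the suffix _a_at marks a probe set designed to catch several transcripts of 1 gene. The first probe set was called lower without PFOS replicate 2 (-0.13, limma adjusted p = 0.0317), with a moderated variance trend (0.0274), after a filter at the 60th percentile (0.0422) and with arrays scaled on ribosomal protein genes (-0.16, limma adjusted p = 0.0153), and turned higher with arrays scaled on the labelling spikes (0.39). Which Mdm2 transcripts each probe set reads was not examined here. Measured by Euclidean distance over the 6 arrays after centring on the control mean, the genes nearest to the first Mdm2 probe set among 13100 candidates were Slc16a11 (0.034), Cenpj (0.045) and Afg3l1 (0.046).

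Mdm4, the partner of Mdm2 that lacks much ligase activity of its own, was close to level. Its main probe set (1460542_s_at) read 9.85, 9.88 and 9.87 in PFOS spleens against 9.86, 9.90 and 9.92 in control spleens. These groups overlapped, and the change was -0.03 ± 0.03 with a 95% interval of -0.10 to 0.05 (limma adjusted p = 0.533). Of its other 3 probe sets, 1458223_at was called higher, at 0.14 ± 0.04 (limma adjusted p = 0.0223), a call that held in 2 of the 6 fits that each left out 1 array. The remaining pair differed by -0.09 and -0.03 and were not called.

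Xpc had the largest rise in the set. The gene, on chromosome 6, encodes the protein that finds helix distortions for nucleotide excision repair, the pathway that cuts out bulky lesions. Its single probe set read 8.08, 8.09 and 8.13 in PFOS spleens against 7.71, 7.76 and 7.68 in control spleens. Every PFOS spleen was above every control spleen by a margin well beyond the spread, with a change of 0.38 ± 0.04, or 1.30-fold (limma adjusted p = 9.73e-05), called in all 6 fits that left out an array. Of all 18193 genes, 4.76% had a change above that of Xpc.

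Genes of the same repair pathway did not rise with Xpc as a group. Of 27 measured genes of nucleotide excision repair, 7 were higher and 12 lower, with a median change of -0.07, while over all genes 32.9% were higher and 20% lower. Those with the smallest p all fell. Lig1, the DNA ligase that also joins replication fragments, changed by -1.42 ± 0.04 on the log2 scale and the ubiquitin ligase scaffold Cul4a by -0.72 ± 0.04. The single-strand DNA binding subunits Rpa2 and Rpa1 changed by -0.69 ± 0.04 and -0.44 ± 0.03. The partners of Xpc in its damage sensing complex, named after their values were seen, differed in direction, with Cetn2 at 0.38 ± 0.07 and Rad23b at -0.19 ± 0.03. Ddb2, a lesion sensor that is itself a p53 target and was likewise named after its value was seen, rose by 0.25. Several of the genes that fell also serve DNA replication, and all 29 mitosis genes fell in the same arrays (mean levels 8.13 to 8.15 in PFOS against 9.50 to 9.54 in control). Their part in the result was not tested.

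Trp53inp1 and Sesn1 rose by smaller amounts. Trp53inp1 encodes a stress-induced nuclear protein that helps p53 activation and takes part in autophagy. Its main probe set (1416926_at) read 11.82, 11.76 and 11.75 in PFOS spleens against 11.54, 11.50 and 11.47 in control spleens. The groups were well apart, with a change of 0.28 ± 0.03, or 1.21-fold (limma adjusted p = 0.000512). The other, 1416927_at, read 7.13, 6.99 and 7.09 in PFOS against 7.27, 7.15 and 7.11 in control, overlapped between groups and was not called (-0.10 ± 0.05, limma adjusted p = 0.16). When the probe sets of the gene were averaged, its call was lost, with a change of 0.09 (limma adjusted p = 0.0981).

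Sesn1 encodes sestrin 1, which restrains the growth kinase complex mTORC1 through the GATOR complexes. Its main probe set (1433711_s_at) read 11.82, 11.86 and 11.84 in PFOS spleens against 11.70, 11.68 and 11.68 in control spleens, a change of 0.15 ± 0.03 (limma adjusted p = 0.00429). The groups did not overlap, and the same held for 1438931_s_at (0.26 ± 0.04) and 1454699_at (0.13 ± 0.04). The fourth, 1444376_at, overlapped between groups at -0.02 ± 0.05. The suffix _s_at marks probe sets that may catch transcripts of more than 1 gene. Of the 16 measured genes for the other sestrins and the GATOR route, Sesn3 (0.27 ± 0.04, limma adjusted p = 0.000664) and Rragd (0.12 ± 0.04) were higher, and none was called lower. That is a called share of 12.5%, against 53% of all genes, of which 32.9% were higher and 20% lower. Sesn2, the sestrin best known for stress induction, which was named after its value was seen, differed by -0.10 ± 0.05 (limma adjusted p = 0.127), and the GATOR genes Depdc5 (-0.08) and Mios (0.21) were not called either. Only 3 of the 6 probe sets of Depdc5 shared that sign, and 1458843_at was called higher at 0.29 (limma adjusted p = 0.000346). The other probe set of Mios, 1424804_at, was called higher at 0.12 (limma adjusted p = 0.0129). Of the 3 probe sets of Rragd, 1431164_at had the opposite sign and was called lower at -0.13 (limma adjusted p = 0.0196). The remaining one, 1440555_at, was called higher at 0.21 (limma adjusted p = 0.0164). Both of these lay under the 40th percentile of all probe sets.

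Phlda3, Zmat3 and Eda2r were called higher by margins near the threshold. Phlda3, whose protein blocks the survival kinase AKT at the membrane, read 7.68, 7.65 and 7.66 in PFOS spleens against 7.59, 7.54 and 7.52 in control spleens. The groups did not overlap, and the change was 0.11 ± 0.03 (limma adjusted p = 0.0224). Zmat3, a zinc finger protein that binds RNA, read 7.20, 7.30 and 7.21 in PFOS against 6.93, 7.14 and 7.11 in control, with control replicate 1 the lowest of its group. Its change was 0.18 ± 0.06 (limma adjusted p = 0.044), and 0.11 (limma adjusted p = 0.0847) without control replicate 1. Eda2r, a receptor of the TNF receptor family for ectodysplasin A2, read 4.33, 4.47 and 4.45 in PFOS against 4.34, 4.26 and 4.26 in control. PFOS replicate 1 lay below control replicate 1, so the groups overlapped, and the change was 0.13 ± 0.05 (limma adjusted p = 0.0476). Its level lies under the 40th percentile of all probe sets, where background sets much of the value. Leaving out 1 array at a time, Phlda3 was called only without PFOS replicate 2 or control replicate 1, Zmat3 only without control replicate 2, and Eda2r only without PFOS replicate 1 or control replicate 1. The limma adjusted p over these 6 fits ran from 0.0219 to 0.0766 for Phlda3, 0.0333 to 0.129 for Zmat3 and 0.0124 to 0.142 for Eda2r.

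Gtse1 had the largest change of the set and the only fall among the genes called. It encodes a microtubule-binding protein made in the later phases of the cell cycle which, in human cells, moves p53 out of the nucleus after damage. Its single probe set read 6.995, 7.08 and 7.10 in PFOS spleens against 7.53, 7.59 and 7.67 in control spleens. The groups lay far apart, with a change of -0.54 ± 0.05, or 1.45-fold lower (limma adjusted p = 8.72e-05), called in all 6 fits that left out an array. Of all genes, 6.21% had a larger change in either direction. Gtse1 moved the same way as all 29 measured mitosis genes, whose median was -1.38, led by Ccnb2 (-1.87), Prc1 (-1.67), Ube2c (-1.59) and Ccna2 (-1.55). Among these, 28 fell more than Gtse1 and 1, Foxm1 at -0.15, named for that exception, fell less. Markers of red cell precursors fell in the same arrays, with mean levels of 9.54 in every PFOS spleen against 10.97 to 10.99 in control spleens, and their part in the result was not tested. The genes nearest to Gtse1 by Euclidean distance over the 6 arrays were Mthfd2 (0.065), Cela1 (0.076) and Stk24 (0.077).

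**Figure D2:**
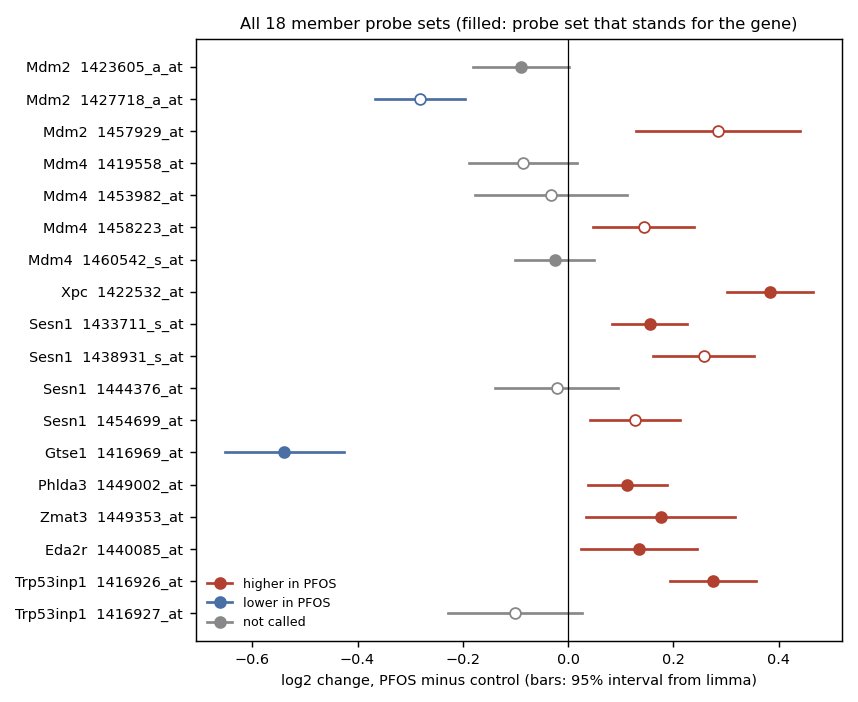
Log2 change, PFOS minus control, for all 18 member probe sets with 95% intervals from limma; red is called higher, blue called lower and grey not called, and filled points are the probe sets that stand for a gene. Changes run from -0.54 for Gtse1 to 0.38 for Xpc, and the 3 Mdm2 probe sets point in different directions.

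Beyond the set, classic damage targets of p53 split in direction. Of 35 listed, 33 were measured, with 11 higher and 8 lower in PFOS and a median change of 0.04, close to the 0.05 over all genes. The called share was 57.6%, against 53% of all genes, so the list stood near the background. The largest changes, those of Gadd45a and Ppm1d, were falls. Gadd45a, a growth arrest gene, read 8.03, 7.94 and 7.93 in PFOS spleens against 9.36, 9.27 and 9.20 in control spleens, a change of -1.31 ± 0.05, or 2.48-fold lower (limma adjusted p = 1.07e-06). Ppm1d, the phosphatase that ends p53 signalling, changed by -0.70 ± 0.04, the antiproliferative gene Btg2 by -0.47 ± 0.03 and the thiamine transporter Slc19a2 by -0.37 ± 0.03. Aen, a nuclease of apoptosis, changed by -0.25 ± 0.04. For Aen and Slc19a2, 1 further probe set each had the opposite sign. Both of those lay under the 40th percentile of all probe sets and were not called.

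Rises in that list included Rrm2b (0.30), Tigar (0.17) and Plk2 (0.15), named after their values were seen. They were among 11 genes called higher, against 8 lower. The rises with the smallest p were those of Ephx1, Ninj1 and Bcl6. Ephx1, an epoxide hydrolase that detoxifies reactive chemicals, rose by 0.48 ± 0.03, Ninj1, a membrane protein of plasma membrane rupture, by 0.41 ± 0.03, and Bcl6, a repressor central to germinal centre B cells, by 0.32 ± 0.03. Cdkn1a, which encodes the cell cycle inhibitor p21 and is the standard readout of p53, read 7.18, 7.32 and 7.30 in PFOS spleens against 7.46, 7.55 and 7.62 in control spleens. It was lower in every PFOS spleen, by -0.27 ± 0.05 (limma adjusted p = 0.00439), and its other probe set was lower too (-0.62). In the same arrays, mitosis genes (median -1.38) and markers of red cell precursors (median -1.55) fell. Their part in the falls of Cdkn1a, Gadd45a, Ppm1d and Btg2 was not tested. Ccng1, which encodes cyclin G1, a partner of the phosphatase PP2A, read 10.10, 9.98 and 9.94 in PFOS against 9.83, 9.73 and 9.70 in control, a rise of 0.25 ± 0.05 (limma adjusted p = 0.00607). Of the 4 genes whose p53 elements are printed above, Sesn1 and Ccng1 thus rose while Gtse1 and Cdkn1a fell. The death genes Bbc3 (0.16) and Tnfrsf10b (-0.11), with Pmaip1 (0.04) and Fas (0.04), were chosen after their values were seen, and only Bbc3 among these 4 was called.

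Kinases and regulators upstream of p53 were also mixed, with 10 higher and 9 lower of 28 measured and a median of 0.02. The called share was 67.9%, against 53% of all genes, of which 32.9% were higher and 20% lower. Chek1, the kinase of the replication checkpoint, changed by -1.12 ± 0.05 (limma adjusted p = 1.68e-06). The p53 kinase Hipk2 changed by -0.72 ± 0.03 and Usp7, which removes ubiquitin from Mdm2 and p53, by -0.62 ± 0.03. Trp53bp1, a sensor of double-strand breaks that binds p53, rose by 0.57 ± 0.04, though 2 of its 6 probe sets had the opposite sign. Those 2 lay under the 40th percentile of all probe sets and were not called. T cell markers (mean levels 9.30 to 9.31 in PFOS against 8.88 to 8.89 in control) and B cell markers (10.44 to 10.48 against 10.04 to 10.07) were higher in the arrays where Xpc, Trp53inp1, Bcl6 and Trp53bp1 were. Their part in these rises was not tested.

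**Figure D3:**
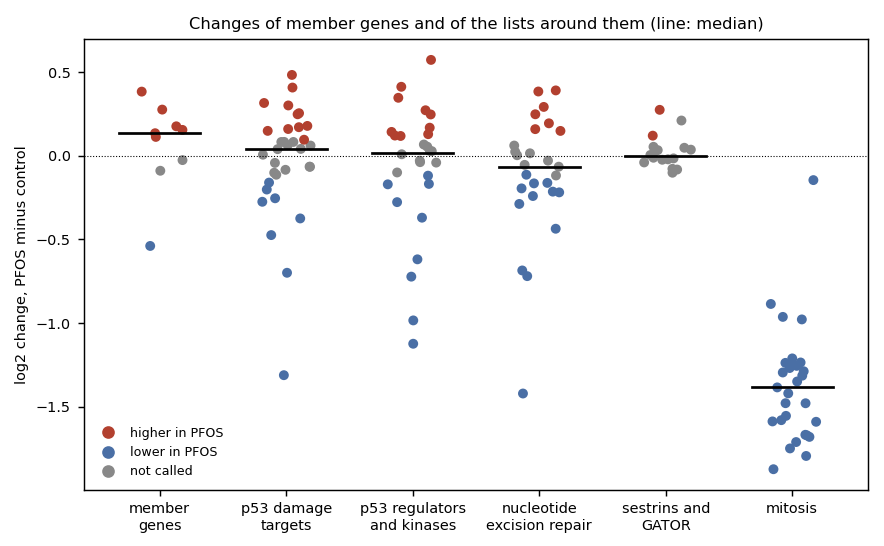
Log2 change, PFOS minus control, of the 9 member genes and of the genes of 5 lists, 1 point a gene coloured by its call, with the median as a black line. The p53 damage targets and regulators straddle 0 with medians of 0.04 and 0.02, while all 29 mitosis genes lie below 0.

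The size and direction of small changes depend on how the arrays are scaled. With arrays scaled on 46 ribosomal protein probe sets, 4 member probe sets were called higher and 5 lower, where 18.4% of all probe sets were higher and 28.5% lower; Xpc (0.31) and Trp53inp1 (0.21) stayed higher and Gtse1 lower (-0.61). The calls of 4 genes were lost there, those of Sesn1 (0.09, limma adjusted p = 0.0555), Phlda3 (0.04, 0.291), Zmat3 (0.11, 0.201) and Eda2r (0.07, 0.299), while the main Mdm2 probe set was called lower (-0.16, limma adjusted p = 0.0153). Of all calls, 39.3% were higher in that scaling, against 61.0% in the deposited values. With arrays scaled on the bacterial labelling spikes, the median of all probe sets moved by 0.48, 93% were called higher and 3.51% lower, and higher calls took in 17 of the 18 member probe sets, Mdm2 (0.39) and Mdm4 (0.45) included. Of all calls, 96.4% were higher there, and Gtse1, at -0.06, was not called (limma adjusted p = 0.203). Both scalings shift all probe sets by the same amount, so distances from the median of all probe sets are unchanged by construction. Those distances were 0.34 for Xpc, 0.24 for Trp53inp1, -0.13 for Mdm2 and -0.58 for Gtse1.

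**Figure D4:**
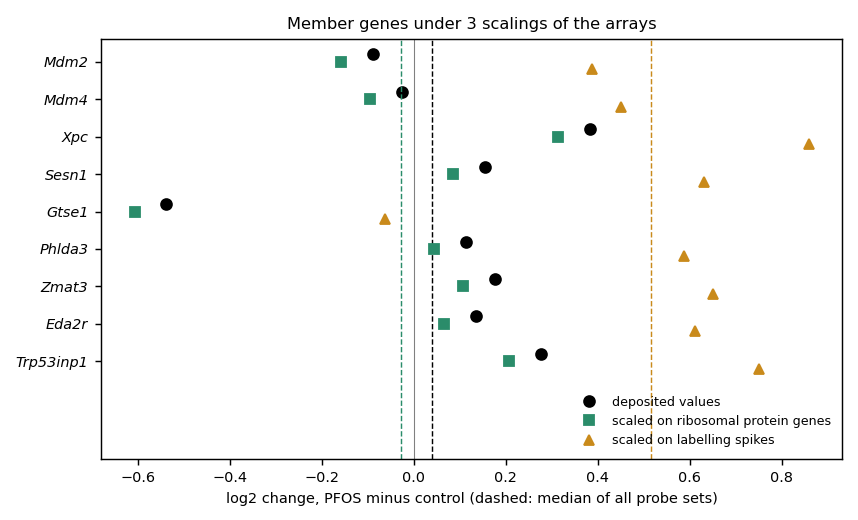
Log2 change, PFOS minus control, of the 9 member genes (main probe set) in the deposited values (circles), after scaling on ribosomal protein genes (squares) and after scaling on labelling spikes (triangles); dashed lines give the median of all probe sets in each. Scaling moves all genes by the same amount, so that Xpc lies to the right of the median and Gtse1 to its left in all 3.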

How the data were processed

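The authors deposited RMA log2 values for 45101 probe sets on 6 arrays. RMA is named in the submitters' processing notes; its version, and any filter, is not given in the sources used here. Without scanner files or detection calls, presence or absence was not judged. After 64 array controls were left out, 45037 probe sets were tested. Platform annotation gave 34945 of them 1 gene symbol, 932 several and 9160 none.

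PFOS was compared with control by the lmFit and eBayes functions of limma (version 3.58.1, R 4.3.3) with two-sided p-values, which were Benjamini-Hochberg adjusted across all 45037, with no filter on low values. In counts over genes, each gene was represented by its probe set of highest mean level. The fit was also run on simulated data with 200 changed probe sets and independent noise. That setting differs from these arrays, where 49.5% of probe sets were called, so it does not vouch for the calls. The number of arrays limits the precision.

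Named genes were the members, the 4 genes of each list with the smallest p (8 for p53 damage targets, with Cdkn1a and Ccng1 added, and Bax, which is not analysed here), and 3 nearest genes for Mdm2 and Gtse1. Outside this rule, Ddb2, Sesn2, Foxm1, Cetn2, Rad23b, Rrm2b, Tigar, Plk2, Bbc3, Tnfrsf10b, Pmaip1 and Fas were named after their values were seen. Members and lists were chosen with earlier results of these data known. Some genes stand in more than 1 list. Alternatives covered the replicate block, filters, probe sets, scaling, variance prior, weights, threshold and leaving out each array.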

Additional observations from a re-analysis of the deposited data

How the results depend on the processing

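Leaving out 1 array at a time gave 5 to 8 member probe sets called higher and 2 to 3 lower, and 8 to 10 p53 damage targets higher and 7 to 9 lower, against 10, 2, 11 and 8 with all arrays. Over all probe sets, 42% to 46.1% were called in these fits, against 49.5% with all arrays. At an adjusted p under 0.01, 5 member probe sets and 7 targets were higher, where 19.5% of all probe sets were higher. Scaling on ribosomal protein genes gave 4 member probe sets higher and 5 lower, with 7 targets higher and 13 lower. Of all probe sets, 18.4% were higher and 28.5% lower there. Scaling on the labelling spikes gave 17 and 0, with 30 and 2, where 93% of all probe sets were higher and 3.51% lower. With 1 probe set per gene after the 40th percentile filter, which leaves out Eda2r, 5 of 8 genes were higher and 1 lower. Of all genes kept there, 66.6% were called. With the mean over a gene's probe sets, 5 of 9 were higher and 1 lower, and Trp53inp1 lost its call (limma adjusted p = 0.0981). Of all genes, 53.9% were called with that mean. Both settings count genes, fewer than the probe sets by construction. Without _s_at, _x_at and _a_at probe sets, 1 of 13 member probe sets was lower, as were 6306 of all 36082, and Mdm2 turned to 0.29. Mdm2 (0.39) and Mdm4 (0.45) turned under the spikes. Xpc, Sesn1, Phlda3, Zmat3, Trp53inp1 and Gtse1 turned under none of the settings tried, nor did Eda2r, which lies below both percentile filters and has no value under them or under 1 probe set per gene. Replicate numbers were not taken as pairs, since the labels give no factor besides the group. Deviations of same-numbered arrays from their group means had positive correlations of 0.226, 0.0929 and 0.0536. With the number as a block, 9 member probe sets were higher and 2 lower, and Eda2r lost its call (limma adjusted p = 0.0886). Of all probe sets, 50.5% were called with that block. The cause of these shifts was not tested.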
